A study of Mus musculus with 6 samples.

Results

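The Ifit genes encode the interferon-induced proteins with tetratricopeptide repeats. Their RNA was followed here in MLO-Y4 cells, a murine osteocyte-like cell line, with and without low-intensity pulsed ultrasound (LIPUS). The 6 members, Ifit1, Ifit1bl1, Ifit1bl2, Ifit2, Ifit3 and Ifit3b, were taken by gene symbol from a table of 53797 genes, and each symbol had a single row. LIPUS was applied to 3 cultures for 20 min at 1.5 MHz and 30 mW/cm2, and 3 Control cultures were left unstimulated, all in α-MEM with fetal bovine serum. According to the methods, stimulated and unstimulated wells shared a culture plate with the transducers of the Control wells unplugged, and RNA was taken 30 min after stimulation ended. MLO-Y4 is a single immortalised line, so the cultures are repeats of the same cells and not different animals.

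Each gene has 1 deposited FPKM (fragments per kilobase of exon, scaled to the number of mapped fragments) for LIPUS and 1 for Control, which the authors pooled over the libraries of the group. No value of a single library was available here, so no SD, test or check between replicates can be given for any difference below, and every difference is a description of pooled values. The paper describes a Control culture that stood apart from the others, and its weight in the Control values could not be examined from pooled values. For this spread, the paper proposes that stimulation may have leaked to Control cells on the shared plate, which was not tested here. FPKM is scaled by gene length, so levels may be compared between genes. Depth cannot be read from it. Log2 ratios are LIPUS over Control with 0.1 FPKM added to both, and are negative where LIPUS was lower. Cuffdiff, the comparison program behind the table, marked 8145 genes with the status OK and left the others untested (status NOTEST). Genes with status OK reached at least 6.70 FPKM in a group, their log2 ratios had a median of 0.0042, and 95% of them lay between -0.74 and 0.76.

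Ifit proteins are cytoplasmic RNA-binding effectors of the innate antiviral response. Ifit1 binds RNA whose cap lacks the ribose methylation found on host mRNA and keeps it from being translated. Family members also form complexes with each other and bind the initiation factor eIF3. The genes are among the most inducible targets of type I interferon. The secreted interferon acts through its receptor and the kinases Jak1 and Tyk2 on a complex of transcription factors, which binds the interferon-stimulated response element (ISRE) in promoters. The factor Irf3, activated by sensors of viral nucleic acid, can also switch these genes on directly. Neither a virus nor interferon is named among the treatments of these cells.

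All 6 genes lie side by side within 99.3 kb on chromosome 19 of GRCm38 and are annotated as protein-coding in GENCODE M21. In order, Ifit2 occupies chr19:34550694-34576419 on the plus strand, Ifit3 chr19:34583531-34588731 (plus), Ifit1bl1 chr19:34592891-34601956 (minus), Ifit3b chr19:34607970-34613401 (plus), Ifit1bl2 chr19:34617049-34640743 (minus) and Ifit1 chr19:34640871-34650009 (plus). Ifit1bl2 and Ifit1 are head to head, with their first bases 128 bases apart. No member overlaps another.

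The coding sequences show which members can be told apart by sequencing. Ifit3 and Ifit3b, each with 403 codons before the stop, were identical at 99.1% of 1212 bases and differed at 11. Their opening stretch is shown because it makes plain how few bases separate them, with the base that differs in capitals (G33A, counted from the first base of the start codon, Ifit3 first).
Ifit3, coding bases 1 to 120: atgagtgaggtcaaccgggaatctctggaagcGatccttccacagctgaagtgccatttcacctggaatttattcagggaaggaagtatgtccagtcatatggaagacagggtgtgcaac
Ifit3b, coding bases 1 to 120: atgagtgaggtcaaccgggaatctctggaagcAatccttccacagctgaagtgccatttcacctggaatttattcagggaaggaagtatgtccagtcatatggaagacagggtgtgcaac
Of all runs of 100 bases, the read length, in the Ifit3 transcript, 31.7% occurred unchanged in Ifit3b, and 27.4% of those of Ifit3b occurred in Ifit3. Ifit1 was 73.8% identical to Ifit1bl2 in coding sequence and 55.5% identical to Ifit2, and 3.29% of its runs were shared with another member. Ifit2 shared none. The split of reads between Ifit3 and Ifit3b is therefore uncertain, and their summed FPKM is given beside the single values.

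The promoters were compared through RefSeq windows of GRCm38.p6 that run from 250 bases before to 50 bases after a gene's start, which were found for all 6 members (9 windows). A short form of the ISRE, spelled GAAA, then any 2 bases, then GAAA, was searched on both strands. A longer form with CT added at its end was searched too, and each of its matches contains the short form. The 250 bases before the start are shown for Ifit1, Ifit3 and Ifit3b, the members with the clearest difference between the groups, on the plus strand with the matches in capitals. The matches shown lie on the opposite strand and so read TTTC, any 2 bases, TTTC.
Ifit1, chr19:34640639-34640888: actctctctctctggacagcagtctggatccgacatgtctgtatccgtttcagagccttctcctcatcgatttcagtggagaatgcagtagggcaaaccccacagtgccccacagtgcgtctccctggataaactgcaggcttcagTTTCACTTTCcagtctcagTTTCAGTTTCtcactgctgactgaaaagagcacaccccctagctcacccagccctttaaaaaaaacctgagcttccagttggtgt
Ifit3, chr19:34583279-34583528: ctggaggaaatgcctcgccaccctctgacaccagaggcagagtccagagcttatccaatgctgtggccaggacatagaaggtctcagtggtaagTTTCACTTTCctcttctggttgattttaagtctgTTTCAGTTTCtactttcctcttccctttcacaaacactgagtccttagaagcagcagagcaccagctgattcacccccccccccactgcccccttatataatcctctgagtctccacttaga
Ifit3b, chr19:34607707-34607956: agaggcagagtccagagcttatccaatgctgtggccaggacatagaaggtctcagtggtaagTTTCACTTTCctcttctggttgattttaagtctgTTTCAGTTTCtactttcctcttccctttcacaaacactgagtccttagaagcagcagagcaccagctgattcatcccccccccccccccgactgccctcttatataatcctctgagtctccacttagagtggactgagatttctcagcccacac
Ifit1 held 2 matches, at positions -104 to -95 and -85 to -76 from its start, and both extended to the longer motif. Ifit3 and Ifit3b, whose promoters are near copies, held 2 matches each, 1 of them to the longer motif. The window of Ifit1bl2 that overlaps the window of Ifit1 held the same 2 matches, read from the other side, and its other window held none. Ifit1bl1 held 1 match to the short motif in each of its 2 windows. Neither of the 2 windows of Ifit2 held a match to these letters. Among all promoter windows, 3.44% held the short motif and 0.271% the longer one, or 3.99% and 0.303% of the genes with a window.

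Ifit1, the cap-binding member, had the highest FPKM of the family in both groups. It stood at 90.5 FPKM in Control and 34.9 FPKM in LIPUS, a 2.59-fold lower level (log2 ratio -1.37). In RNA from whole cultures, fewer cells with Ifit1 RNA and less of it per cell cannot be told apart. Ifit3 was close to Ifit1 in Control with 87.8 FPKM and stood at 29.8 FPKM in LIPUS, 2.95-fold lower (log2 ratio -1.56). Both genes were thus among the more abundant in Control cells, where 1065 and 1100 of all genes had a higher FPKM, against 2769 and 3212 in LIPUS cells. Ifit3b had 16.4 FPKM in Control and 4.72 FPKM in LIPUS, a 3.47-fold lower level (log2 ratio -1.77). Summed to avoid the uncertain split, Ifit3 and Ifit3b together had 104 FPKM in Control and 34.5 FPKM in LIPUS, 3.02-fold lower. The fold of such a sum always lies between those of its members, so its place there does not show how the reads were split.

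Ifit2, an RNA-binding member, did not show this difference. It had 6.45 FPKM in Control and 5.83 FPKM in LIPUS, and LIPUS reached 90.4% of Control (log2 ratio -0.14). Cuffdiff left it untested. Its higher value lies just under 6.70 FPKM, the lowest seen among genes with status OK, and 43 genes above that level were untested too. The difference between Ifit2 and the other members was not tested.

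The remaining members were under 1 FPKM in both groups. Ifit1bl2, which shares its promoter region with Ifit1, had 0.648 FPKM in Control and 0.141 FPKM in LIPUS. Ifit1bl1 had 0.0928 FPKM in Control and is listed at 0 in LIPUS, so no fold is given. Both were untested, and such low values may rest on few reads. The libraries kept the strand of the RNA, but whether it was used for FPKM is not stated.

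**Figure D1:**
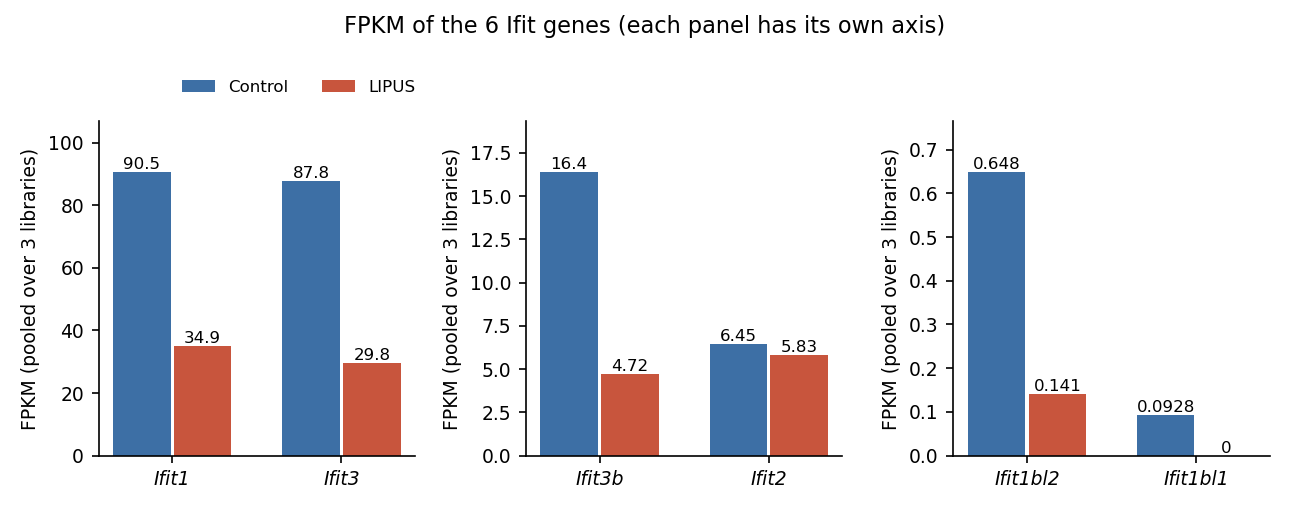
FPKM of the 6 Ifit genes in Control (blue) and LIPUS (red); each bar is 1 value that the authors pooled over 3 libraries, so there are no error bars, and each panel has its own linear axis from 0. The LIPUS bar is far below the Control bar for Ifit1 (34.9 against 90.5), Ifit3 (29.8 against 87.8) and Ifit3b (4.72 against 16.4), and nearly level with it for Ifit2 (5.83 against 6.45).

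In all, 4 of the 6 members were at least 2-fold lower in LIPUS with 0.1 FPKM added, namely Ifit1, Ifit3, Ifit3b and Ifit1bl2. Of these, the first 3 had the status OK, and 0.909% of all genes with that status were at least 2-fold lower. Among genes with at least 1 FPKM in a group, whatever their status, the share was 4.01%, and the same 3 members, but not Ifit2, were as low. Ifit1bl2, untested and under 1 FPKM, belongs to neither of these sets of genes. The count of 4 of the 6 members thus has no matching share over all genes. All genes with status OK reached 6.70 FPKM in a group, and Ifit3b did so in Control alone. The count over members with status OK is thus not independent of the difference. Ranked from the lowest log2 ratio among the 8145 genes, Ifit3b was number 10, Ifit3 number 13 and Ifit1 number 20.

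The 5 genes with the lowest ratios of all those with status OK were all at 2.16 FPKM or less in LIPUS. They were Gm44335 (54.2 FPKM in Control and listed at 0 in LIPUS), AC161763.1 (38.6 FPKM and listed at 0), Gm20503 (6.93 and 0.633 FPKM), Sardhos (20.1 and 2.16 FPKM) and Tmem140 (7.43 and 1.32 FPKM).

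**Figure D2:**
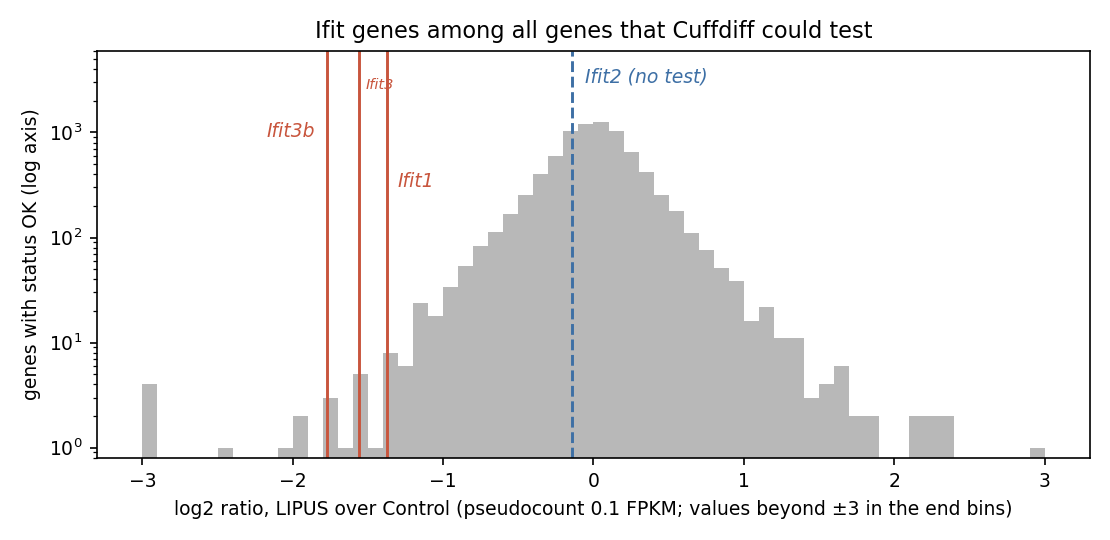
Number of genes with status OK (log axis) by log2 ratio of LIPUS over Control in bins of 0.1, with 0.1 FPKM added and values beyond 3 in the end bins; lines mark Ifit genes. Ifit3b (-1.77), Ifit3 (-1.56) and Ifit1 (-1.37) lie in the sparse left tail, while Ifit2 (-0.14), which has no test, lies within the bulk.

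Summed over the family, 202 FPKM in Control stood against 75.3 FPKM in LIPUS, so that LIPUS held 37.3% of the Control level (log2 ratio -1.42). Most of this sum came from Ifit1 and Ifit3. In Control, Ifit1 made up 44.8% of the family, Ifit3 43.5%, Ifit3b 8.11% and Ifit2 3.19%. In LIPUS, the shares were 46.3% for Ifit1, 39.5% for Ifit3 and 6.27% for Ifit3b, while that of Ifit2 was 7.74%. The share of Ifit2, an untested gene near 6 FPKM, was thus higher in LIPUS and that of Ifit3 lower. The level of Ifit2 was 0.0712 of that of Ifit1 in Control and 0.167 of it in LIPUS. Ifit3 stood at 0.970 of Ifit1 in Control and 0.853 in LIPUS, and without replicate values it cannot be said whether neighbours in this order differ beyond their spread.

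The genes with status OK whose log2 ratio was nearest to that of the summed family were AW209491 (-1.42), Gm15446 (-1.38), AL590144.3 (-1.37), Stk39 (-1.36) and Tsc22d3 (-1.35). Likeness here means only the distance between log2 ratios over 2 pooled values, and the FPKM of these genes in Control, from 7.28 (Tsc22d3) to 14.8 (Gm15446), was far below that of Ifit1.

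The genes beside the cluster were listed as well. Within 200 kb of a member, 9 other genes are listed, 5 of them at 0 in both groups. Lipa, the lysosomal acid lipase gene on the side of Ifit2, had the status OK, with 24.0 FPKM in Control and 26.5 FPKM in LIPUS (log2 ratio 0.15). Pank1, a pantothenate kinase gene beyond Ifit1, was untested and had 2.08 FPKM in Control and 2.67 FPKM in LIPUS. Ch25h, a cholesterol hydroxylase gene that interferon also induces, had 1.69 FPKM in Control and 0.549 FPKM in LIPUS (log2 ratio -1.47), and it was untested. The noncoding Gm26902, which overlaps it on the other strand, was at 0.208 and 0.178 FPKM. The neighbours above 0 thus lay on both sides of 0 in log2 ratio, and whether position bears on the difference was not tested.

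**Figure D3:**
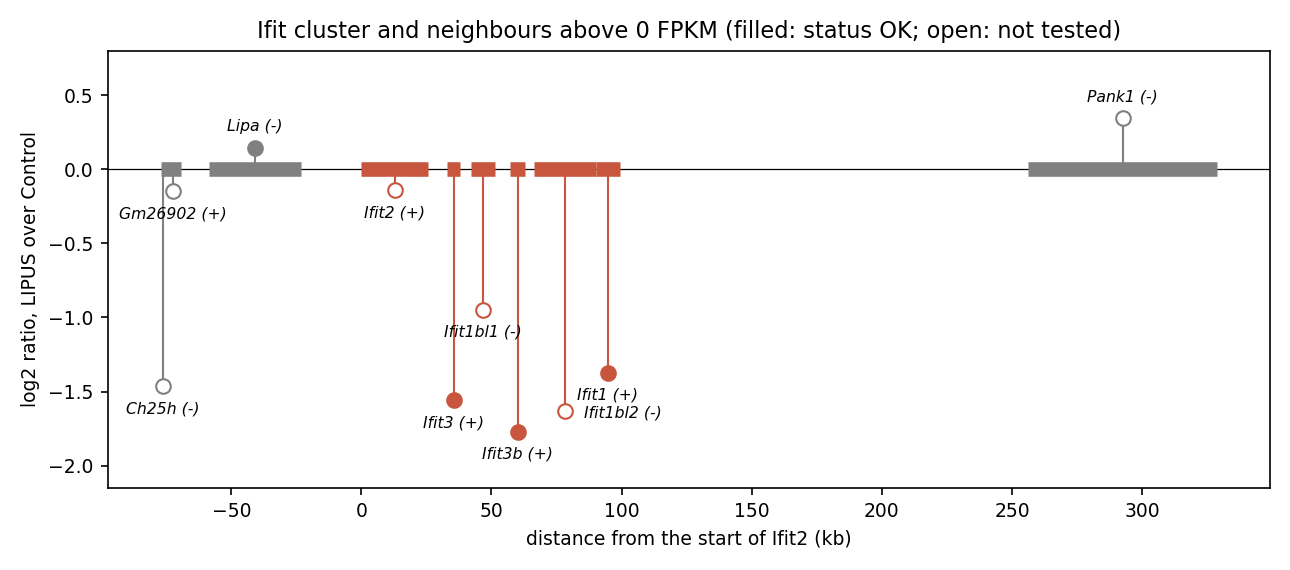
The Ifit cluster (red) and its neighbours above 0 FPKM within 200 kb (grey) by distance from the start of Ifit2 in kb, with gene bodies as blocks, the strand in brackets and the log2 ratio of LIPUS over Control as a lollipop, filled for status OK and open for untested genes. Ifit3, Ifit3b and Ifit1 lie between -1.77 and -1.37, Lipa lies at 0.15, and the point of Ifit1bl1 depends on the 0.1 FPKM added because it is listed at 0 in LIPUS.

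The steps of the interferon pathway around the Ifit genes were described from lists that were chosen with earlier results of these data known. Interferon genes themselves were at the floor. Of 11 interferon genes listed, 9 were at 0 in both groups, Ifnb1 had 0.646 FPKM in Control and 0.367 FPKM in LIPUS, and Ifna4 had 0.607 FPKM in Control and is listed at 0 in LIPUS. Of the receptors and their kinases, none of the 7 genes with status OK differed by 1.5-fold in either direction, and their median log2 ratio was 0.15. Over all genes with status OK, 4.67% were at least 1.5-fold lower and 4.64% at least 1.5-fold higher, so a count of 0 among 7 genes does not set them apart. Ifnar1 and Ifnar2, the chains of the type I receptor, had 16.4 and 58.2 FPKM in Control and 15.7 and 69.7 FPKM in LIPUS, and Jak1 had 60.4 and 74.1 FPKM. Tyk2, which was untested, had 2.36 FPKM in Control and 3.82 FPKM in LIPUS.

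The transcription factors were given as single genes. Stat2, a factor of interferon signalling, had 23.2 FPKM in Control and 12.6 FPKM in LIPUS (log2 ratio -0.88), and Irf5 had 29.5 and 17.2 FPKM (-0.78). Irf9, the DNA-binding partner of Stat2, was nearly level with 24.7 and 23.1 FPKM (-0.10). Irf7, a factor that amplifies the response, had 124 and 84.0 FPKM (-0.56). Irf1 had 18.6 and 12.5 FPKM (-0.57), and Irf2 had 10.1 and 7.48 FPKM (-0.43). Of the 7 factors shown, only Stat2 and Irf5 reached a 1.5-fold difference. Irf3, which can act on Ifit genes without interferon, lay the other way with 19.8 FPKM in Control and 28.5 FPKM in LIPUS (0.53).

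Of 11 sensors and adaptors with status OK, 4 were at least 1.5-fold lower and none as much higher, with a median log2 ratio of -0.55. The shares over all genes with status OK were 4.67% lower and 4.64% higher. The 4 included Tlr3, which reached the 6.70 FPKM common to genes with that status in Control alone. The count of lower genes is thus not independent of the difference. The lowest of the 11 was Zbp1, a sensor of nucleic acid in the Z form. It had 61.2 FPKM in Control and 27.8 FPKM in LIPUS (-1.13). The RNA sensor genes Ddx58 (58.6 and 31.7 FPKM) and Dhx58 (45.3 and 24.6 FPKM) were both at -0.88. The adaptor Mavs was level, with 11.8 and 11.0 FPKM (-0.10), as was the kinase Tbk1, with 24.0 and 25.7 FPKM (0.10).

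Most other effectors that interferon induces were lower in LIPUS. Of 21 with status OK, 15 were at least 1.5-fold lower and 1 was as much higher, with a median log2 ratio of -0.88. Over all genes with status OK, the shares were 4.67% lower and 4.64% higher. Mx2 and Cmpk2 reached the 6.70 FPKM common to genes with status OK in Control alone, so the count of lower genes is not independent of the difference. The lowest with status OK were Oas1g, an oligoadenylate synthetase gene (28.3 FPKM in Control and 12.1 FPKM in LIPUS, log2 ratio -1.21), Mx2, a dynamin-like GTPase gene (10.5 and 4.55 FPKM, -1.19), and Ifi44 (146 and 65.7 FPKM, -1.15). Usp18, which removes the ubiquitin-like Isg15 from proteins and dampens the receptor, had 85.9 and 43.5 FPKM (-0.98). Rsad2, the viperin gene, resembled Ifit2, with 5.28 FPKM in Control and 4.67 FPKM in LIPUS, and it too was untested. Mx1, also a dynamin-like GTPase gene and untested, had 1.23 FPKM in Control and 0.251 FPKM in LIPUS, and its log2 ratio of -1.92 was lower than that of any Ifit gene. Ifi27 was the exception, with 38.7 FPKM in Control and 81.5 FPKM in LIPUS (1.07). Over the 4 pathway lists together, 22 of 47 genes with status OK (46.8%) were at least 1.5-fold lower, against 4.67% of all genes with that status. The 22 included Tlr3, Mx2 and Cmpk2, which reached 6.70 FPKM in Control alone. None of the 47 had a log2 ratio as low as that of Ifit1, the least different of the 3 Ifit genes with status OK. This order was not tested, and it leaves out untested genes such as Ifit2 and Mx1.

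Genes for the cap that Ifit1 reads and for the initiation factors that Ifit proteins bind were listed as well. None of 4 genes for cap-forming and cap-methylating enzymes with status OK differed by 1.5-fold, which is near what the shares over all genes give. Rnmt, which methylates the cap guanine, had 13.0 FPKM in Control and 8.97 FPKM in LIPUS (log2 ratio -0.53), and Cmtr1, which methylates the cap-adjacent ribose that Ifit1 reads, had 33.1 FPKM in Control and 30.5 FPKM in LIPUS. None of 16 genes of the initiation factors eIF3 and eIF4 differed by 1.5-fold either, and their log2 ratios lay between -0.25 and 0.07. Eif3c and Eif3e, subunits of eIF3, had 117 and 168 FPKM in Control and 108 and 160 FPKM in LIPUS.

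**Figure D4:**
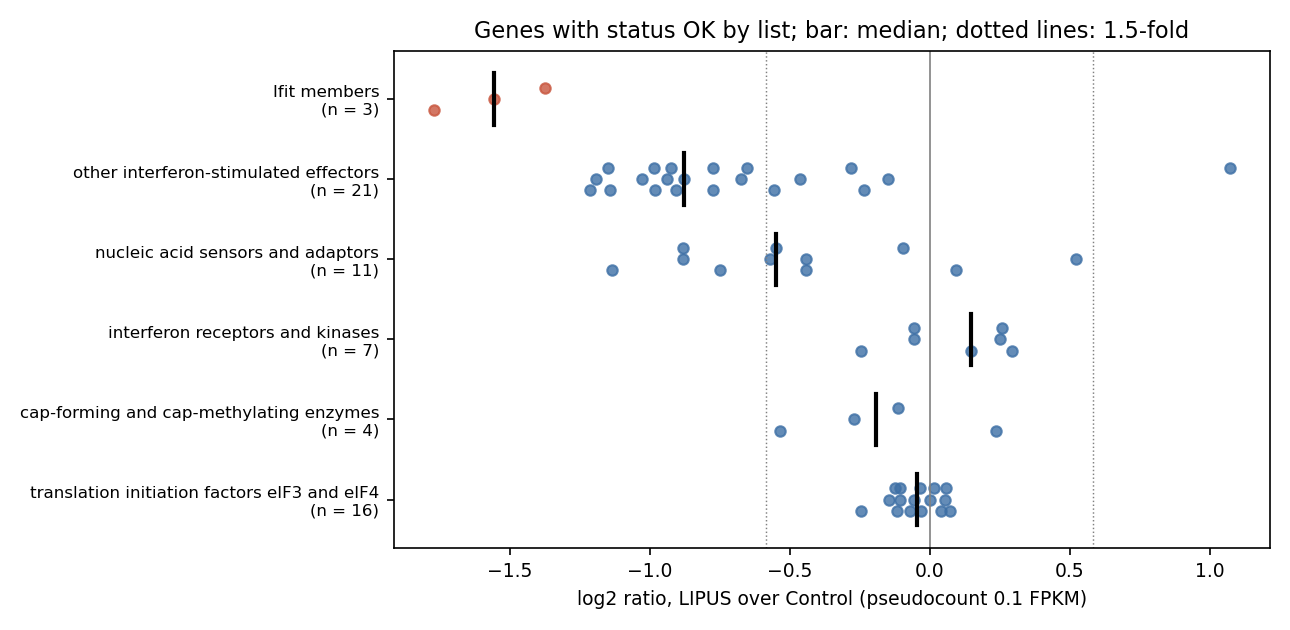
Log2 ratio of LIPUS over Control, with 0.1 FPKM added, for each gene with status OK in 6 groups; points are genes, black bars are medians and dotted lines mark 1.5-fold. The 3 Ifit genes (median -1.56) lie left of every other point shown, the other interferon-stimulated effectors have a median of -0.88, and the receptors and kinases have a median of 0.15. Untested genes are left out, among them Ifit2 (-0.14) and Mx1 (-1.92). Ifit3b reached the 6.70 FPKM of genes with status OK in Control alone, so the place of the Ifit genes is not independent of the status.

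The ISRE letters shown above for Ifit1, Ifit3 and Ifit3b were then counted over all genes. A window was found for 6482 genes with status OK, which is 79.6% of them, or 81.6% of those on chromosomes that the window table covers. Genes on the other chromosomes were not used here. The longer motif occurred in 30 of these genes, of which 16 (53.3%) were at least 1.5-fold lower in LIPUS and none was as much higher. Without Ifit1, Ifit3 and Ifit3b, 13 of 27 (48.1%) were lower, with a median log2 ratio of -0.57. Here too some genes with status OK, such as Gbp7, reached 6.70 FPKM in Control alone, so the shares of lower genes are not independent of the status. The lower genes included Oas1g, Gbp7 (11.3 FPKM in Control and 5.07 FPKM in LIPUS), Trim30a (40.6 and 19.3 FPKM), Gbp3 (65.1 and 32.4 FPKM) and Ddx58, named after their values were seen. Genes with the short motif numbered 258, and 34 (13.2%) were lower and 12 (4.65%) higher by 1.5-fold. Among the 6224 genes without it, 4.19% were lower and 4.15% higher. Presence of the letters is a description of the sequence and does not show that a factor binds there. The split was chosen after the data were seen.

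**Figure D5:**
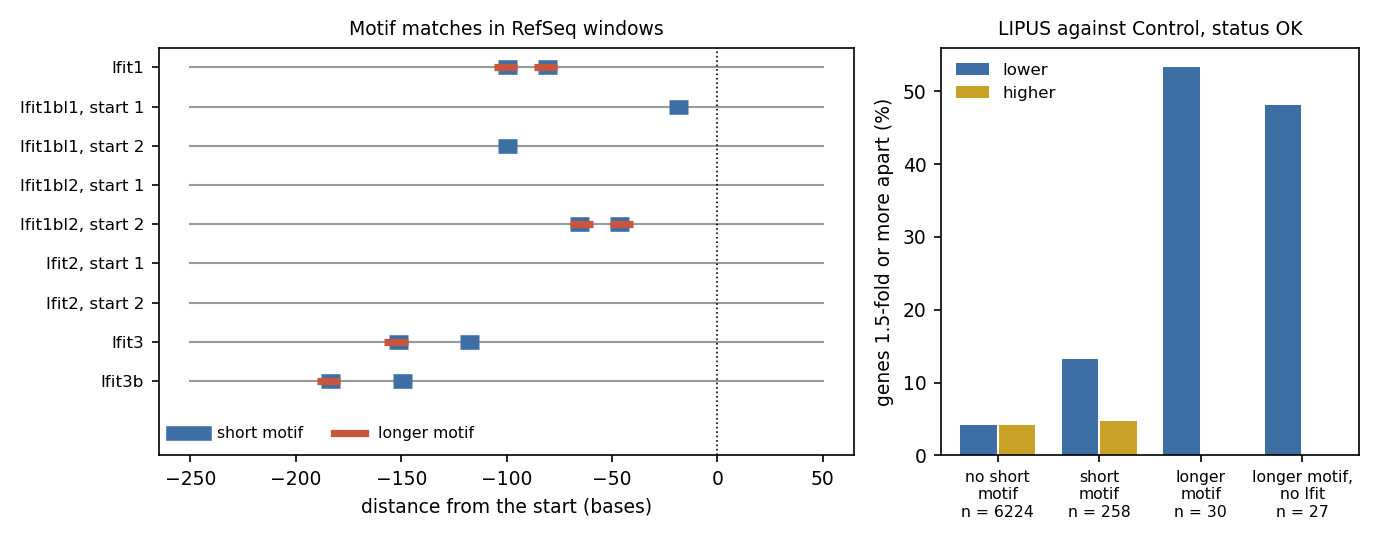
Left, matches to the short (blue) and longer (red) motif in the RefSeq windows of the members, by distance from the start in bases; right, percent of genes with status OK that were at least 1.5-fold lower (blue) or higher (yellow) in LIPUS, by motif. Both windows of Ifit2 and the first of Ifit1bl2 are empty, and the share of lower genes is 53.3% with the longer motif against 4.19% without the short one.

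The label of the cells was compared with marker genes. Of 12 osteocyte and osteoblast markers, 9 were above 0 in at least 1 group, with Spp1 (4514 FPKM in Control and 4158 FPKM in LIPUS) and Col1a1 (891 and 731 FPKM) high. Sost, Fgf23 and Mepe, markers of mature osteocytes, are listed at 0 in both groups. Bglap (1.58 FPKM in LIPUS) and Phex (0.190 FPKM in LIPUS) are listed at 0 in Control, and both were untested. Of 7 markers with status OK, 2 were at least 1.5-fold lower in LIPUS and 1, Dmp1, was as much higher. Over all genes with status OK, the shares were 4.67% lower and 4.64% higher. Dmp1 reached the 6.70 FPKM common to genes with that status in LIPUS alone, so its place in the count is not independent of the difference. Dmp1, an osteocyte matrix gene, had 3.04 FPKM in Control and 7.65 FPKM in LIPUS, and Pdpn, an early osteocyte marker, had 295 and 402 FPKM. Runx2, an osteoblast transcription factor, had 24.4 and 14.8 FPKM, and the alkaline phosphatase gene Alpl had 293 and 190 FPKM. Of 12 immune and endothelial markers, 8 are listed at 0 in both groups, among them the leukocyte gene Ptprc and the macrophage genes Adgre1 and Itgam. The list summed to 8.06 FPKM in Control and 2.14 FPKM in LIPUS, mainly through Cd68 (5.32 and 1.72 FPKM) and Lyz2 (2.01 and 0.189 FPKM). These low values were lower in LIPUS, as were those of the Ifit genes, and their part in the result was not tested.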

How the data were processed

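RNA of 3 LIPUS and 3 Control cultures of MLO-Y4 cells was sequenced as stranded mRNA libraries. The authors deposited FPKM from Cufflinks with Ensembl transcripts, pooled to 1 value per group in a Cuffdiff table. The submitters' processing notes and the methods name Trimmomatic 0.36 for trimming, and TopHat 2.1.0 (bowtie 2.2.6.0) for alignment on GRCm38. Its columns of log2 fold change, test statistic, p-value, q-value and significance hold the authors' own comparison and were not used here. Groups were taken from the sample titles.

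Log2 ratios were computed with a pseudocount of 0.1 FPKM, and folds are from the FPKM without it. No test was possible. The members and lists were chosen with earlier results of these data known. Named are the members, the list genes, the neighbours within 200 kb, the 5 genes nearest to the summed family and the 5 genes of lowest log2 ratio; other names were chosen after their values were seen. Positions and transcripts are from GENCODE M21, promoters from RefSeq (GRCm38.p6). Proteins were not used here, so coding sequences were aligned instead. Python 3.11.15, numpy 2.4.6, pandas 2.3.3, Biopython 1.88 and matplotlib 3.10.9 were used. The log ratio (without pseudocount), the counts past 2-fold and the motif search were tested on simulated data, and the other steps were not. A result of the transcription factor list is not reported here. Other pseudocounts, scalings, folds, backgrounds and windows were tried.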

Additional observations from a re-analysis of the deposited data

How the results depend on the processing

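The values are pooled, so neither the spread between cultures nor the depth behind a value is known, and differences of low genes such as Ifit1bl1 and Ifit1bl2 may rest on few reads. No paired analysis was possible because the table holds 1 value per group, and for the same reason no replicate could be left out. The summed family log2 ratio of -1.42 became -1.43 when centred on the median of all genes, -1.47 when both groups were rescaled to the same sum, -1.49 over members with status OK, -1.46 without Ifit1, -1.49 without Ifit2, -1.32 without Ifit3 and -1.39 without Ifit3b. At 3-fold in place of 2-fold, 2 members in place of 4 were counted, Ifit3b and the untested Ifit1bl2, while Ifit1 and Ifit3 were not. The count was 3 with a pseudocount of 1 FPKM, without Ifit1bl2, and 5 with 0.01 FPKM, through Ifit1bl1. Both of these genes were under 1 FPKM. Of the pathway genes, 6 in place of 22 were lower by 2-fold. Among genes with status OK, 3 members lay in the lowest 1% of log2 ratios. Among all 11999 genes at 1 FPKM or more, where the lowest 1% ended at -2.82, 0 members did, with Ifit3b at percentile 1.70, Ifit3 at 2.06 and Ifit1 at 2.48. Within 100 kb in place of 200 kb, 4 neighbours in place of 9 were listed, without Pank1, and Ch25h stayed among them. The count of members with a motif stayed within 1.5 times of that reported.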
